A study of Homo sapiens with 24 samples.

Results

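The genes described here were 9 apolipoprotein genes (APOA1, APOA2, APOA5, APOB, APOC1, APOC3, APOE, APOH and APOM) and MTTP, which encodes the microsomal triglyceride transfer protein. They were chosen by symbol, and all 10 listed symbols were found among the 26475 gene symbols counted. RNA came from HepG2, an established human liver cancer cell line that makes and secretes lipoproteins, in 24 libraries of 8 groups with 3 libraries each. In the groups without interferon gamma (IFNg), cells received DMSO as solvent, 50 nM ABBV-075, or ABBV-744 at either 50 or 500 nM. The other 4 groups received IFNg, alone or combined with each of those 3 inhibitor treatments. The labels give no IFNg dose and no treatment times, and do not say whether the 3 libraries of a group came from separate cultures, so the p-values measure only the spread between these libraries, which may be technical. ABBV-075 and ABBV-744 are inhibitors of BET proteins, which read acetylated histones through bromodomains and promote transcription. ABBV-744 is known as selective for the second of the paired bromodomains.

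Apolipoproteins coat the particles that carry triglycerides and cholesterol through blood. The liver builds very low density lipoprotein (VLDL) around one molecule of apolipoprotein B, to which the microsomal triglyceride transfer protein adds lipid in the endoplasmic reticulum. Apolipoproteins A-I and A-II are the main proteins of high density lipoprotein (HDL). The C, E and A-V apolipoproteins move between particles and set how fast lipases and receptors clear them.

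Between 2978982 and 4304103 reads per library fell on genes (median 3462418.5), and the 10 genes took 0.998% to 1.91% of them. Each gene had at least 52 counts in every library, so all 10 passed the filter on low counts in every comparison. Levels are given as CPM, a gene's reads scaled to a fixed total of reads on genes. In bulk RNA, a share that fell cannot be told apart from a change in the fraction of cells expressing the gene or in the total RNA per cell. The hepatocyte-lineage markers were present, all 9 of 9. Their summed level was 15981 to 16220 CPM in DMSO, 15717 to 17073 CPM with IFNg, 16344 to 17337 CPM with ABBV-744 500 nM and 16873 to 17167 CPM with ABBV-744 50 nM, and lower, at 13150 to 14446 CPM, with ABBV-075 and in every group given IFNg and an inhibitor. These are also the 4 groups with the lowest APOA5 and the highest APOB levels, and the part of this shift in the results was not tested. The sum rests mostly on SERPINA1, TF and ALB, and its members did not move as one: from IFNg to IFNg with ABBV-744 50 nM, mean SERPINA1 went from 5489 to 3697 CPM and AFP from 1046 to 1841 CPM. None of the 9 passed the test in ABBV-075 against DMSO. Of 5 fibroblast markers, 4 were at 0 in every library and their sum stayed at or below 0.635 CPM. The endothelial markers summed to 0 to 2.15 CPM over 3 of 3 genes, and the 4 leukocyte markers to 8.01 to 27.3 CPM, with PTPRC and CD3E at 0. Most of the leukocyte sum was CD68, whose level was lower with ABBV-075 (8.20 to 13.5 CPM) than in DMSO (17.7 to 20.5 CPM) and also lower with IFNg and an inhibitor (7.42 to 12.7 CPM). CD14 made up the rest, with 1.11 to 4.29 CPM in DMSO, 2.95 to 6.002 CPM with IFNg and 0.241 to 0.301 CPM with ABBV-075. The part of either in the results was not tested. The interferon response genes checked, among them IRF1 and GBP1, rose with IFNg, 3 of 3 past the threshold. HEXIM1, which BET inhibitors are known to raise, stood at 50.6 to 56.8 CPM in DMSO and at 137 to 152 CPM with ABBV-075. ABBV-744 gave 60.3 to 68.0 CPM at 50 nM and 84.3 to 93.9 CPM at 500 nM. In libraries labelled IFNg with ABBV-744 50 nM, HEXIM1 lay at 38.7 to 55.5 CPM, around the 44.8 to 49.3 CPM of IFNg alone, while SERPINI1, also known to rise with BET inhibitors, lay at 9.64 to 11.02 CPM against 2.46 to 3.64 CPM. Without IFNg, SERPINI1 lay at 2.54 to 6.86 CPM with ABBV-744 50 nM and at 4.02 to 5.33 CPM in DMSO. Neither HEXIM1 nor SERPINI1 passed the test in ABBV-744 50 nM against DMSO. Groups follow the labels as given, and whether labelling or library preparation had a part in the values of ABBV-744 with IFNg, and so in the interactions, was not tested.

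A trend of log2 fold changes with GC content was seen with both ABBV-744 and ABBV-075 and touches many values below. Whether it came from the libraries or from the treatments was not tested. In ABBV-744 50 nM against DMSO, the genes in the lowest quartile of GC content had a median log2 fold change of -0.30 and those in the highest quartile one of 0.24. In ABBV-744 50 nM with IFNg against IFNg these medians were turned around, at 0.72 and -0.33. ABBV-075 gave 0.39 and -0.15 against DMSO and 0.54 and -0.17 with IFNg. The genes described here differ in GC content. MTTP, APOH and APOB, with 41.9%, 42.9% and 43.5% GC in their longest transcripts, are low. APOM, APOA2 and APOC1 lie at 53.0% to 55.4%, and APOA5, APOC3, APOA1 and APOE at 60.2% to 69.0%. Each comparison was therefore also fitted with a correction for GC content, and the result is given wherever it ended a call or turned the direction of a gene that passed. Values of genes that did not pass also changed sign in several comparisons, and no direction is read from them. In the plot against GC content, the genes rich in GC lie above 0 without IFNg and below 0 with it.

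**Figure D1:**
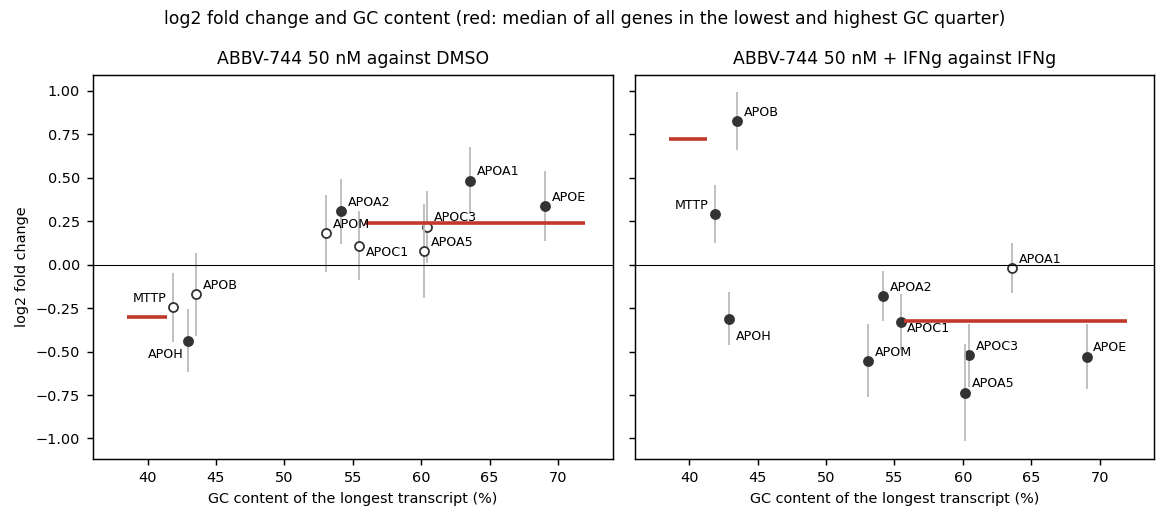
log2 fold change (y axis) of the 10 genes against the GC content of their longest transcript in percent (x axis), for ABBV-744 50 nM against DMSO (left) and with IFNg against IFNg (right). Grey lines are 95% intervals, filled points passed an adjusted p of 0.05, and red bars are the medians of all genes in the lowest and highest GC quartile: -0.30 and 0.24 on the left, 0.72 and -0.33 on the right.

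By position, the genes form groups that the choice by symbol did not use (GENCODE, GRCh38). APOA5 (chr11:116789367-116792420, minus strand), APOC3 (chr11:116829706-116833072, plus strand) and APOA1 (chr11:116835751-116837622, minus strand) belong to 1 cluster on chromosome 11, where APOA4 lies between APOA5 and APOC3. APOE (chr19:44905791-44909393) and APOC1 (chr19:44914247-44919349) are neighbouring protein-coding genes on the plus strand of chromosome 19. MTTP (chr4:99564081-99623997, plus strand), APOB (chr2:21001429-21044073, minus strand), APOH (chr17:66212033-66256525, minus strand), APOA2 (chr1:161222292-161223631, minus strand) and APOM (chr6:31652416-31658210, plus strand) stand alone. APOC1 has a near-identical pseudogene copy, and reads that align to several places were not counted, so its level is uncertain. For APOM, 91.7% of the reads assigned on either strand were on the strand of the gene, against at least 98.8% for the others.

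The 250 bases before an annotated start site are shown for MTTP, APOA5 and APOH, the genes with the largest decreases under ABBV-075 among those with an entry. They come from RefSeq (GRCh38.p14), which paired 7 of the 10 genes. MTTP is at chr4:99574574-99574823 on the plus strand, APOA5 at chr11:116792421-116792670 and APOH at chr17:66229416-66229665 on the minus strand. Capitals mark matches on either strand. AGGTCA was searched as a nuclear receptor half-site and CAAAGTCCA as a form of the HNF4A motif. TGTTTAC stood for forkhead factors, TTGCNNCAA for C/EBP factors and TATAAA for the TATA box, and GTTAAT and TTCNNNGAA were searched as well.
MTTP: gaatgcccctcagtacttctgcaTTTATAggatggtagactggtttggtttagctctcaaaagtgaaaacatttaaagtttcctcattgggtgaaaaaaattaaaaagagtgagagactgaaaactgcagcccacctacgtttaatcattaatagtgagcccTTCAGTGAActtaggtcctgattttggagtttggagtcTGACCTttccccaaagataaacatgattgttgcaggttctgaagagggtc
APOA5: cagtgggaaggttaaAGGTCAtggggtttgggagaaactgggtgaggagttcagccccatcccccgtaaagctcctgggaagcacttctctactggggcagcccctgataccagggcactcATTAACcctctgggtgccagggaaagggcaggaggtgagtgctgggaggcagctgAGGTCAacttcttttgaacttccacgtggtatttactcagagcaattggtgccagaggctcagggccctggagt
APOH: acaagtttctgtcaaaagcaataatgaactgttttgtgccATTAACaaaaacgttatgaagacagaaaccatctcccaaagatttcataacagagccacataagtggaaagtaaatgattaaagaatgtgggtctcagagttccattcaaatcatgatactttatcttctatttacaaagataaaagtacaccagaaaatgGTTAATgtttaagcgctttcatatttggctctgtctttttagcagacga
MTTP held AGGTCA 50 bases before the start, TTCNNNGAA at 88 and TATAAA at 227. APOA5 held AGGTCA at 74 and 235 bases and GTTAAT at 129, and APOH held GTTAAT at 49 and 210 bases. In the full 300-base windows of the 7 genes, AGGTCA and TATAAA were found in APOA5 and MTTP, GTTAAT in APOA5 and APOH, TTCNNNGAA in MTTP and TGTTTAC in APOA2 only, while CAAAGTCCA and TTGCNNCAA were found in none. Of 34796 windows of that length, 13.8% held AGGTCA, 0.385% CAAAGTCCA, 3.42% TGTTTAC, 6.91% GTTAAT, 1.99% TTGCNNCAA, 11.6% TATAAA and 7.67% TTCNNNGAA. These shares are per window, while the matches of the 7 genes are given per gene, and some genes had several windows. Another MTTP window, at chr4:99563880-99564179, held no match. A match describes letters and is not a binding site.

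Per kilobase of exon, the DMSO level was highest for APOA1, with 1607 ± 111 CPM per kb (SD, n = 3). APOH followed with 1159 ± 34.7 and APOA2 with 1023 ± 23.99 CPM per kb. APOB, whose exons span 14.8 kb, stood at 451 ± 36.4 CPM per kb. APOC1 (194), APOC3 (185), APOE (127) and APOM (64.2) formed a middle range in CPM per kb. Exon length here covers all annotated exons of a gene, which can exceed any 1 transcript. It was 2154 bases for APOE and 1178 for APOC1, whose longest transcripts have 1166 and 689 bases. Per kilobase of transcript these levels would be higher. MTTP with 28.6 ± 0.83 and APOA5 with 21.0 ± 1.69 CPM per kb were the lowest of the 10. Across the 8 groups, the highest mean level was 3.82 times the lowest for MTTP, 2.99 times for APOA5 and 2.07 times for APOB. For the other 7 genes this ratio lay between 1.38 and 1.88.

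**Figure D2:**
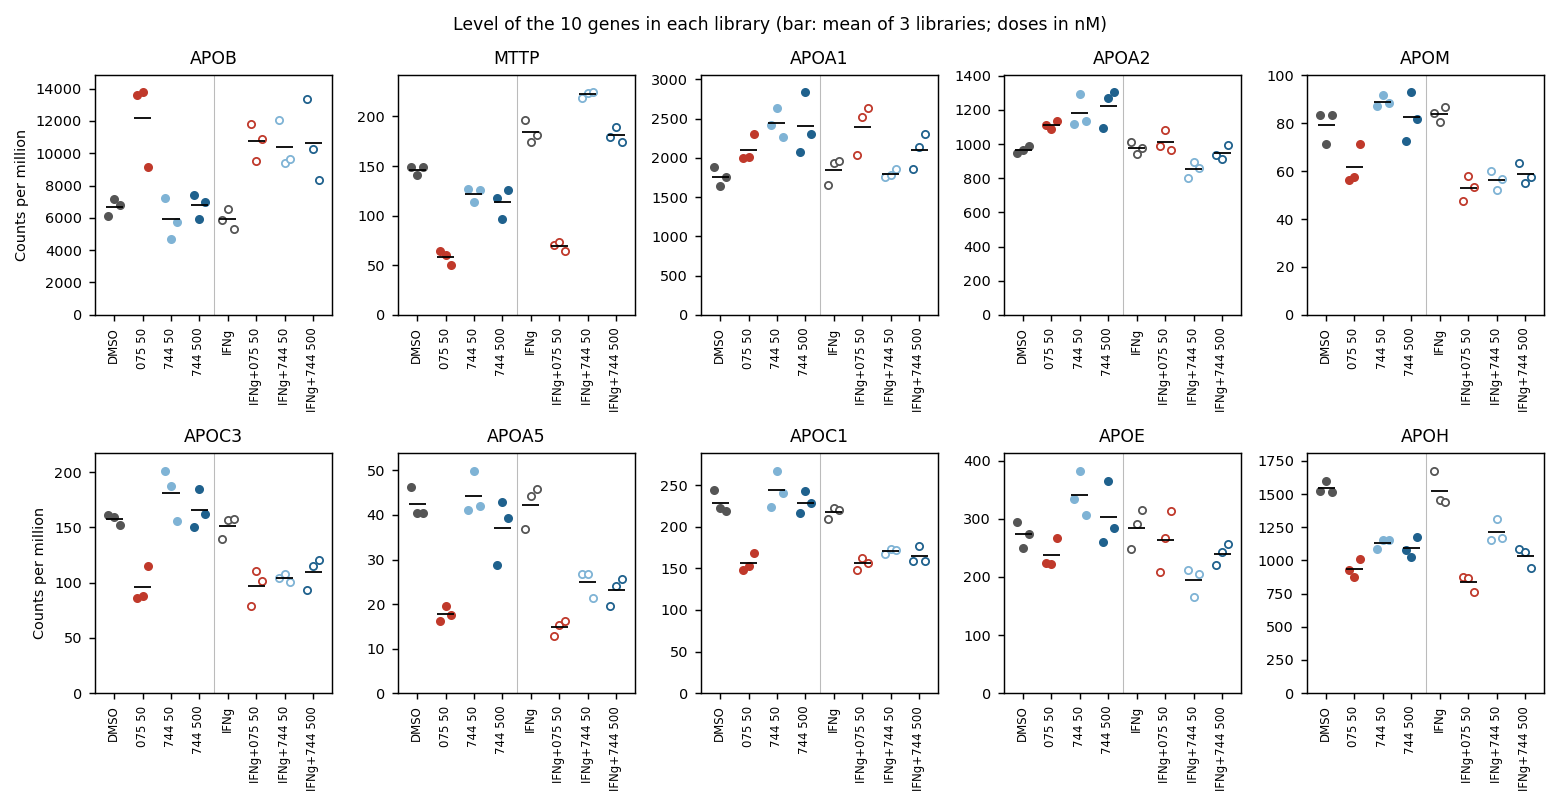
Level of each of the 10 genes in CPM (y axis, from 0) in the 24 libraries, by group (x axis; doses in nM, groups with IFNg as open points to the right of the grey line); bars are means of 3 libraries. MTTP and APOA5 are low in both ABBV-075 groups, and APOB is high in them and in the 2 groups given ABBV-744 with IFNg.

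ABBV-075 downregulated 6 of the 10 genes and upregulated 1 relative to DMSO. MTTP and APOA5 fell most, APOH, APOC3, APOC1 and APOM fell less, and APOB rose. A gene is called changed at an adjusted p of at most 0.05 over all genes tested. By that rule (edgeR, Benjamini-Hochberg), 19.6% of the 11244 genes tested were lower and 19.8% were higher. The median log2 fold change of the 10 genes was -0.48, beside 0.03 over all genes tested. None of them reached the further threshold used by the study, 1.5 log2 units in either direction, which 3.19% of all genes passed as lower. Here and below, overlap of the libraries between groups was not counted over all genes tested. It describes the libraries of a gene and adds no support to a call.

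MTTP had 149, 141 and 149 CPM in the DMSO libraries and 63.9, 60.3 and 50.5 CPM with ABBV-075. Every treated library was far below every DMSO library, and the log2 fold change was -1.35 ± 0.12 (SE, adjusted p = 1.31e-05), a 2.55-fold decrease. APOB, the structural protein of VLDL, went the other way. Its libraries had 6096, 7152 and 6816 CPM in DMSO and 13627, 13769 and 9177 CPM with ABBV-075. The groups did not overlap, although replicate 3 of ABBV-075 lay well below the other two. The log2 fold change of APOB was 0.84 ± 0.16 (adjusted p = 0.00167), and after a correction for transcript length it was 0.49 (adjusted p = 0.00102). In 4 of the 8 groups the library with the most APOB also had the largest share of reads outside genes, and over all libraries that share ran from 14.8% to 25.3%. The share also differed between groups. ABBV-744 50 nM had 14.8% to 17.3%, below the 20.5% to 23.97% of DMSO and the 22.8% to 24.1% of ABBV-744 50 nM with IFNg. The 17.5% to 23.3% of IFNg overlapped with the latter. ABBV-744 500 nM had 15.6% to 19.1%, which spans the 18.1% to 18.9% with IFNg. Reads aligned to several places made up 66.2% to 69.4% with ABBV-744 50 nM and 57.5% to 59.6% with IFNg added. The part of these shares in the APOB level, in ABBV-744 50 nM against DMSO or in the ABBV-744 interactions was not tested.

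APOA5, which promotes the clearance of triglycerides by lipoprotein lipase, had 46.4, 40.4 and 40.5 CPM in DMSO and 16.2, 19.5 and 17.4 CPM with ABBV-075. Its groups were far apart (log2 fold change -1.28 ± 0.16, adjusted p = 8.2e-05, a 2.43-fold decrease). APOC3, an inhibitor of that clearance from the same cluster, had 161, 159 and 152 CPM in DMSO and 86.1, 87.6 and 115 CPM with ABBV-075 (log2 fold change -0.73 ± 0.14, adjusted p = 0.00131). APOC1, an inhibitor of lipoprotein uptake and of cholesteryl ester transfer, went from 244, 223 and 219 CPM to 148, 153 and 168 CPM (log2 fold change -0.57 ± 0.11, adjusted p = 0.00182). In none of the 3 genes did the groups overlap. APOE, the ligand of the LDL receptor family and the neighbour of APOC1, had 295, 250 and 274 CPM in DMSO and 225, 222 and 266 CPM with ABBV-075. These ranges overlapped, and the log2 fold change of -0.22 had a 95% interval of -0.48 to 0.04.

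The HDL genes did not move together with ABBV-075. APOA1 had 1883, 1640 and 1762 CPM in DMSO and 1999, 2016 and 2300 CPM with ABBV-075, and APOA2 had 945, 965 and 990 CPM against 1113, 1090 and 1133 CPM. In both genes every treated library was above every DMSO library, but neither passed the test (log2 fold changes 0.24, 95% interval -0.02 to 0.49, and 0.18, 95% interval -0.04 to 0.40). With the GC correction both passed, at 0.36 and 0.35. APOM, which carries sphingosine-1-phosphate on HDL, had 83.4, 71.5 and 83.5 CPM in DMSO and 56.5, 57.7 and 71.3 CPM with ABBV-075. Its decrease (-0.38 ± 0.14, adjusted p = 0.0466) was at the threshold. The call was lost with DESeq2 (adjusted p = 0.086), with the GC correction (0.076), with the length correction (0.16) and without any one of the 6 libraries except replicate 3 of ABBV-075. APOH, or beta-2-glycoprotein I, a phospholipid-binding plasma protein, had 1524, 1597 and 1512 CPM in DMSO and 925, 871 and 1011 CPM with ABBV-075. The groups were clearly apart (-0.74 ± 0.11, adjusted p = 0.000329).

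**Figure D3:**
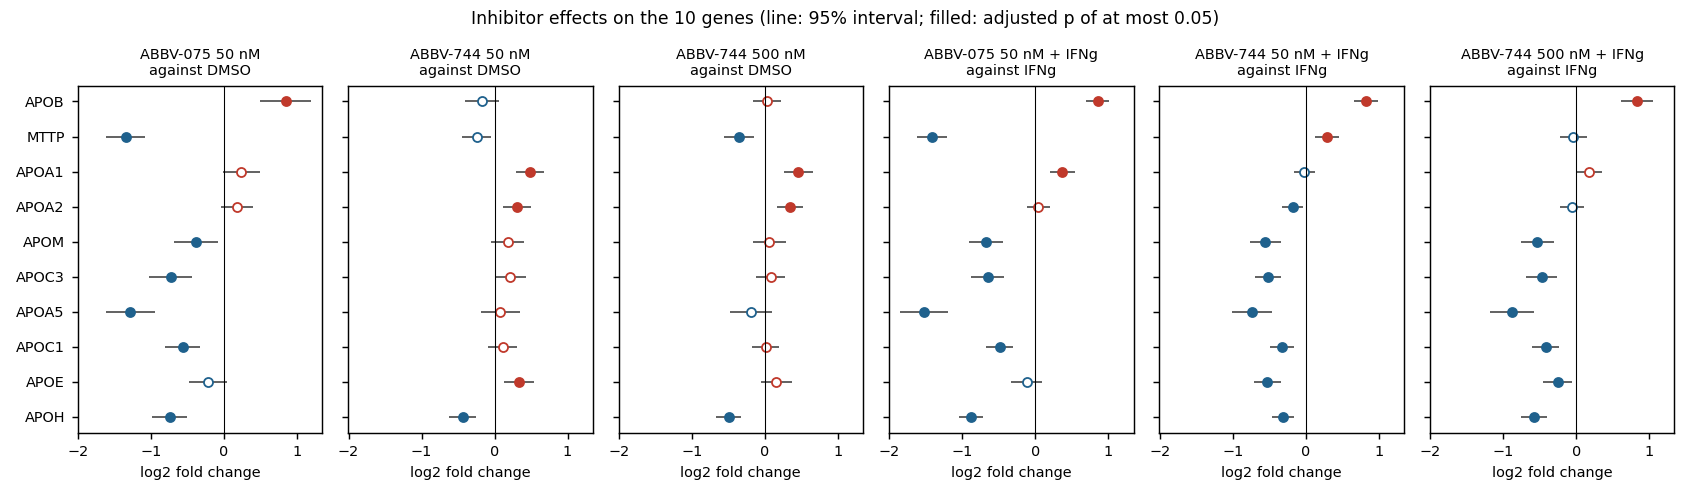
log2 fold change (x axis) of the 10 genes for each inhibitor treatment against its own control, DMSO in the 3 left panels and IFNg in the 3 right panels; lines are 95% intervals and filled points passed an adjusted p of 0.05. MTTP and APOA5 lie lowest in both ABBV-075 panels, and APOB lies at 0.83 to 0.85 in all 3 panels with IFNg.

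With IFNg present, all 7 genes called without IFNg were called again in the same direction against IFNg alone, and APOA1 also rose. The calls were 6 lower and 2 higher of the 10 genes, where 28.4% of the 11187 genes tested were lower and 28.2% higher. The median log2 fold change of the 10 genes was -0.57, beside -0.00 over all genes. APOA5 fell from 36.8, 44.3 and 45.9 CPM to 12.9, 15.2 and 16.3 CPM (-1.53 ± 0.16, adjusted p = 3.35e-10). That decrease passed the threshold of 1.5, as did 3.75% of all genes tested. MTTP fell from 196, 174 and 182 CPM to 70.9, 73.2 and 64.2 CPM (-1.41 ± 0.10, adjusted p = 2.23e-14). APOH fell from 1677, 1456 and 1444 CPM to 876, 865 and 762 CPM (-0.88 ± 0.08, adjusted p = 1.1e-11). None of these groups overlapped.

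APOM (-0.68), APOC3 (-0.66) and APOC1 (-0.49) were also lower in the IFNg background, with adjusted p-values from 3.84e-06 to 2.35e-05. APOB rose from 5864, 6565 and 5339 CPM to 11818, 9524 and 10880 CPM (0.85 ± 0.08, adjusted p = 1.59e-11; 0.49 after the length correction). APOA1 rose from 1651, 1930 and 1964 CPM to 2036, 2521 and 2628 CPM (0.37 ± 0.09, adjusted p = 0.000368). In both genes all treated libraries were above all IFNg libraries. APOA2 (0.04, 95% interval -0.12 to 0.20) and APOE (-0.12, 95% interval -0.34 to 0.09) did not pass. The GC correction kept all 8 calls and added APOA2, higher at 0.31, and APOE, lower at -0.20.

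The effects of ABBV-075 with and without IFNg were compared directly as an interaction in a fit of the 4 groups. None of the 10 genes passed, with edgeR or with DESeq2, and none had an unadjusted p under 0.05. Over all 11530 genes tested, 4 (0.0347%) passed. The intervals show what the data leave possible. For MTTP the difference of the 2 effects was -0.08 on the log2 scale (95% interval -0.40 to 0.23), for APOB -0.01 (-0.39 to 0.38) and for APOA5 -0.26 (-0.71 to 0.19).

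ABBV-744 at 50 nM, relative to DMSO, raised APOA1, APOA2 and APOE and lowered APOH. These were 3 genes higher and 1 lower of the 10, where 8.81% of the 11116 genes tested were higher and 10.1% lower. APOA1 had 2414, 2636 and 2261 CPM, all above the DMSO libraries (0.48 ± 0.09, adjusted p = 0.00106). APOH had 1085, 1152 and 1154 CPM, all below them (-0.44 ± 0.09, adjusted p = 0.00137). APOA2 had 1120, 1293 and 1138 CPM (0.31 ± 0.09, adjusted p = 0.021), and APOE had 335, 383 and 306 CPM (0.34 ± 0.10, adjusted p = 0.0194). Both groups stood above every DMSO library. With the GC correction, APOA1 (0.24) and APOH (-0.27) passed, while APOA2 (0.14, adjusted p = 0.18) and APOE (0.07, adjusted p = 0.55) did not. APOA2 and APOE also lost their calls without DMSO replicate 2 or DMSO replicate 3, which left 2 of the 10 genes, and APOA2 without DMSO replicate 1. APOA2 did not pass with the length correction (adjusted p = 0.057), nor APOE in a fit of all 24 libraries (adjusted p = 0.10). MTTP had 127, 114 and 126 CPM, below every DMSO library, but its log2 fold change of -0.25 did not pass (95% interval -0.44 to -0.05, adjusted p = 0.0723). The levels of APOB (7245, 4681 and 5772 CPM) and APOA5 (41.2, 50.0 and 41.9 CPM) overlapped with DMSO. APOM, with 87.1, 91.7 and 88.3 CPM, lay above every DMSO library but did not pass (0.18, 95% interval -0.04 to 0.40). APOC3 (0.22) and APOC1 (0.11) overlapped with DMSO and did not pass either.

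At 500 nM, ABBV-744 raised APOA1 and APOA2 and lowered APOH and MTTP relative to DMSO, which is 2 higher and 2 lower of the 10 genes beside 7.48% and 7.80% of the 11124 genes tested. APOA1 had 2080, 2834 and 2309 CPM (0.46 ± 0.10, adjusted p = 0.00143) and APOA2 had 1093, 1268 and 1303 CPM (0.34 ± 0.09, adjusted p = 0.0065). APOH had 1078, 1022 and 1176 CPM (-0.49 ± 0.08, adjusted p = 0.000121), and MTTP had 118, 96.4 and 126 CPM (-0.36 ± 0.10, adjusted p = 0.0152). None of these 4 groups overlapped with DMSO. All 4 calls held with the GC correction, which added APOA5, lower at -0.33. MTTP lost its call without DMSO replicate 2 or DMSO replicate 3, and APOA2 without replicate 3 of ABBV-744. APOC1, APOC3, APOM and APOB each had a log2 fold change between 0.01 and 0.08 and overlapped with DMSO, as did APOE (0.16) and APOA5 (-0.19).

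IFNg alone raised 1 of the 10 genes, MTTP, relative to DMSO, where 2.76% of the 11217 genes tested were higher. MTTP had 196, 174 and 182 CPM, all above the DMSO libraries (0.33 ± 0.08, adjusted p = 0.0103, a 1.26-fold increase). The call was lost without DMSO replicate 2, without DMSO replicate 3 and in a fit of all 24 libraries. The other 9 genes overlapped with DMSO and had log2 fold changes between -0.18 (APOB) and 0.08 (APOM).

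Before correction, ABBV-744 gave another pattern of calls with IFNg than without it, and the GC trend over all genes was turned around as well. At 50 nM against IFNg alone, APOB and MTTP rose and APOA2, APOA5, APOC1, APOC3, APOE, APOH and APOM fell. These were 2 higher and 7 lower of the 10 genes, where 27.4% of the 11150 genes tested were higher and 24.3% lower. APOB had 12085, 9369 and 9657 CPM, all above the IFNg libraries (0.83 ± 0.08, adjusted p = 3.8e-10; 0.39 after the length correction). MTTP had 219, 224 and 224 CPM, also above every IFNg library (0.29 ± 0.08, adjusted p = 0.00307). APOA5 had 26.8, 26.8 and 21.3 CPM (-0.74 ± 0.14, adjusted p = 3.27e-05) and APOE had 213, 165 and 204 CPM (-0.53 ± 0.09, adjusted p = 1.12e-05), both below IFNg without overlap. APOM (-0.55), APOC3 (-0.52), APOC1 (-0.33) and APOH (-0.31) did not overlap with IFNg either, with adjusted p-values from 1.01e-05 to 0.000859. APOA2 (-0.18, adjusted p = 0.0336) lost its call without IFNg replicate 1, IFNg replicate 2 or replicate 1 of the combined treatment.

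Several of these calls depended on the GC correction. It turned MTTP to -0.08 (adjusted p = 0.38) and APOA2 from -0.18 to 0.12 (adjusted p = 0.14), brought APOC1 to -0.004 (adjusted p = 0.97) and added APOA1 as higher at 0.29. The 6 calls that held were APOB (0.62), APOA5 (-0.41), APOH (-0.57), APOM (-0.27), APOE (-0.25) and APOC3 (-0.19, adjusted p = 0.049). The length correction also brought APOA2 to 0.0049 (adjusted p = 0.96), ended the calls of APOH (-0.14, adjusted p = 0.091) and APOC1 (-0.12, adjusted p = 0.17), and gave APOA1 as higher at 0.16.

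At 500 nM with IFNg, 1 of the 10 genes was higher and 6 were lower than with IFNg alone, beside 22.9% and 22.8% of the 11091 genes tested. APOB had 13359, 10269 and 8343 CPM, a wide spread that stayed above IFNg (0.83 ± 0.11, adjusted p = 2.15e-07; 0.45 after the length correction). APOA5 had 19.6, 24.03 and 25.5 CPM (-0.88 ± 0.15, adjusted p = 1.36e-05), and APOH had 1088, 1064 and 944 CPM (-0.58 ± 0.08, adjusted p = 1.32e-06). Both were below all IFNg libraries. APOM (-0.53), APOC3 (-0.48) and APOC1 (-0.42) were lower, and APOE was lower at -0.26 (adjusted p = 0.0282) with groups that overlapped. APOE lost its call with DESeq2 (adjusted p = 0.08), with the length correction (0.49), in a fit of all 24 libraries (0.15) and without any one of IFNg replicates 2 and 3 and combined-treatment replicates 1 and 2, and APOC1 lost it with the GC correction (0.18). That correction turned APOA2 from -0.06 to 0.23, which passed, and also called APOA1 higher (0.34) and MTTP lower (-0.28).

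An interaction fit compared the effects of ABBV-744 in the 2 backgrounds, in which a negative value means that the effect was lower with IFNg. For 50 nM, 9 of the 10 genes passed, 2 higher (APOB 0.97, MTTP 0.51) and 7 lower, from APOC1 at -0.47 to APOE at -0.89. Over the 11451 genes tested, 25.0% were higher and 26.5% lower, with a median of -0.14. With the GC correction 3 of the 10 genes passed, APOB at 0.67, APOE at -0.33 and APOH at -0.29, and the genes called over all genes went from 5905 to 2334. The length correction ended the calls of APOA2 (adjusted p = 0.086) and APOC1 (0.41). For 500 nM, 7 of the 10 genes passed, 1 higher (APOB 0.83) and 6 lower, from APOA2 at -0.38 to APOA5 at -0.67, beside 18.5% and 15.0% of the 11428 genes tested. APOE (-0.39) lost its call with DESeq2 (adjusted p = 0.065), in a fit of all 24 libraries (0.12) and without any one of 7 of the 12 libraries. The GC correction left APOB (0.64) and gave APOH (-0.31), 2 of the 10, and the length correction left 1, APOB at 0.41. Over all genes tested at 500 nM, 16.8% passed in either direction with the GC correction and 33.2% with the length correction. APOB is the gene of the 10 whose interaction passed at both doses under each of these fits.

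**Figure D4:**
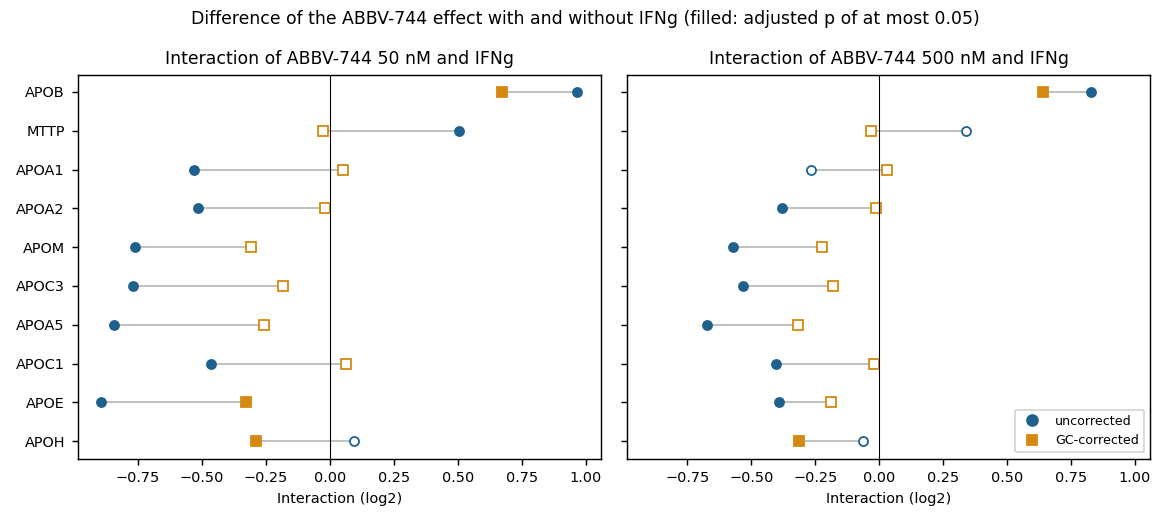
Interaction of ABBV-744 and IFNg on the log2 scale (x axis) for the 10 genes, at 50 nM (left) and 500 nM (right), without correction (blue circles) and with the GC correction (orange squares); filled points passed an adjusted p of 0.05. Most genes move toward 0 with the correction, while APOB stays at 0.67 and 0.64.

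The compounds were compared at the dose they shared, 50 nM, with p-values adjusted over all genes tested in each of the 4 comparisons of compounds and doses. Without IFNg, ABBV-075 gave lower levels than ABBV-744 for 6 of the 10 genes and a higher level for 1, where 19.4% of the 10992 genes tested were lower and 21.4% higher. APOA5 was 2.52-fold lower (-1.34 ± 0.17, adjusted p = 0.00057) and MTTP 2.11-fold lower (-1.08 ± 0.14, adjusted p = 0.000639). APOC3 (-0.93), APOC1 (-0.65), APOM (-0.54) and APOE (-0.53) were also lower, and APOB was higher (1.04 ± 0.20, adjusted p = 0.00363; 0.58 after the length correction). None of these 7 pairs of groups overlapped. The GC correction ended the calls of APOM (-0.25, adjusted p = 0.066) and APOE (-0.19, adjusted p = 0.095) and called APOH lower at -0.54. Without replicate 2 of ABBV-075, APOM and APOE did not pass, nor did APOM with the length correction (-0.30, adjusted p = 0.069). The intervals without correction were -0.49 to 0.04 for APOA1, -0.35 to 0.15 for APOA2 and -0.53 to -0.04 for APOH, which did not pass.

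With IFNg in both groups, MTTP was the gene that differed most between the compounds. It was 3.09-fold lower with ABBV-075 than with ABBV-744 (-1.63 ± 0.09, adjusted p = 1.2e-18), past the threshold of 1.5 that 1.13% of all genes tested passed as lower. Of the 10 genes, 3 were lower and 3 higher, beside 17.0% and 16.7% of the 11126 genes tested. APOA5 (-0.71 ± 0.17, adjusted p = 0.00117) and APOH (-0.49 ± 0.08, adjusted p = 4.61e-06) were the other lower genes. The higher genes were APOE (0.49), APOA1 (0.46) and APOA2 (0.30). APOE overlapped between the groups and lost its call with DESeq2 (adjusted p = 0.064) and with the GC correction (0.08, adjusted p = 0.41), while APOA1 went to 0.16 with that correction and kept its call. APOB did not differ beyond the spread (0.10, 95% interval -0.09 to 0.29), and neither did APOC3 (-0.06, -0.27 to 0.15), APOM (-0.05, -0.28 to 0.19) or APOC1 (-0.08, -0.26 to 0.09). The GC correction called APOB (0.18), APOC1 (-0.21) and APOC3 (-0.30).

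Few calls separated the 2 doses of ABBV-744. Without IFNg none of the 10 genes differed between 500 nM and 50 nM with edgeR or DESeq2, and none had an unadjusted p under 0.05; over all 10967 genes tested, 3 (0.0274%) passed. The interval was -0.36 to 0.14 for MTTP, -0.09 to 0.48 for APOB and -0.61 to 0.07 for APOA5. With IFNg, 1 of the 10 genes passed, APOE, which was higher at 500 nM with 221, 243 and 257 CPM than at 50 nM with 213, 165 and 204 CPM (0.34 ± 0.09, adjusted p = 0.0375), where 1.41% of the 11022 genes tested were higher. This call was lost with the GC correction (0.07), with the length correction (adjusted p = 0.068), in a fit of all 24 libraries and without replicate 2 or 3 of either group. In this comparison with IFNg, 5 of the 10 genes had an unadjusted p under 0.05 (edgeR), as did 1531 of the 11022 genes tested. MTTP was lower at 500 nM in every library, at 179, 189 and 175 CPM, but did not pass (-0.27, 95% interval -0.43 to -0.11, adjusted p = 0.0821). ABBV-075 at 50 nM and ABBV-744 at 500 nM differ in dose and were not tested against each other. Side by side, their log2 fold changes against DMSO, which they share as a control, were -1.35 and -0.36 for MTTP, -1.28 and -0.19 for APOA5, -0.74 and -0.49 for APOH, and 0.84 and 0.02 for APOB.

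**Figure D5:**
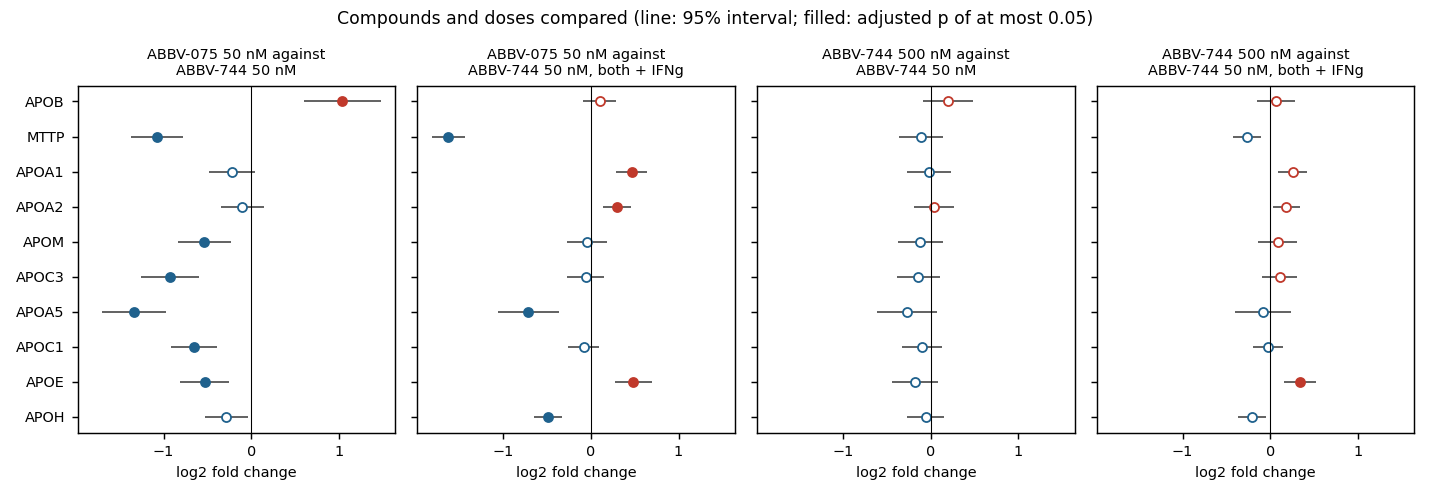
log2 fold change (x axis) of the 10 genes between ABBV-075 and ABBV-744 at 50 nM, without and with IFNg (left pair), and between the 2 doses of ABBV-744 (right pair); lines are 95% intervals and filled points passed an adjusted p of 0.05. MTTP lies at -1.08 and -1.63 in the left pair and at -0.11 and -0.27 in the right pair.

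Ordered by level, MTTP was highest with IFNg and ABBV-744 50 nM (222 CPM), then with IFNg (184), IFNg and ABBV-744 500 nM (181), DMSO (146), ABBV-744 50 nM (122), ABBV-744 500 nM (114), IFNg and ABBV-075 (69.4) and ABBV-075 (58.2 CPM). Among neighbours in this order, the ranges overlapped between IFNg and IFNg with ABBV-744 500 nM and between the 2 doses of ABBV-744 without IFNg. APOA5 fell into 3 tiers, with means of 37.04 to 44.3 CPM in DMSO, IFNg and both ABBV-744 groups, 23.1 and 24.96 CPM in the groups given ABBV-744 with IFNg, and 14.8 and 17.7 CPM in the groups given ABBV-075. Within each tier neighbouring ranges overlapped, and between tiers they did not. APOB formed 2 tiers, with means of 10370 to 12191 CPM in the ABBV-075 groups and the groups of ABBV-744 with IFNg, and 5899 to 6775 CPM elsewhere. APOH was highest in DMSO (1544 CPM) and IFNg (1526 CPM), which overlapped each other and no other group next to them, and lowest in the ABBV-075 groups (834 and 936 CPM).

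Spread within groups differed among the genes. The within-group SD of log2 CPM, pooled over the 8 groups, was 0.24 for APOB, 0.19 for APOE, 0.18 for APOA5, 0.17 for APOC3 and 0.15 for APOA1. The median over the 2586 genes whose mean log2 CPM reached 6 was 0.13, a reference too abundant for APOA5. The SD was lowest for APOC1 and APOA2, at 0.08 each.

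Over the 8 group means, APOC1 and APOC3, which lie on different chromosomes, had the most similar pattern among the 10 genes (Pearson r = 0.99, n = 8 groups, log2 CPM). APOM (0.96 with both) and APOA5 (0.96 with APOC1, 0.95 with APOC3) followed, and APOB ran opposite to APOC1 (-0.97). Among 9384 genes whose mean log2 CPM reached 3, the pattern nearest to APOB was that of HOOK3 (r = 0.998), nearest to MTTP that of NOLC1 (0.990), nearest to APOA5 that of TSKU (0.997), nearest to APOH that of PPP4R1 (0.993) and nearest to APOM that of VARS2 (0.999). The nearest genes to APOA1 and APOA2 were TNFAIP1 (0.977) and GTF3C1 (0.986), and the nearest to APOC1 other than APOC3 was ATP6V0E2 (0.994). These values describe 8 points that share libraries and GC trends, and the 3 nearest genes of each member, 30 in all, were the same with a smaller prior count.

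Other genes of lipoprotein metabolism were read from lists chosen by function. Over all genes tested in ABBV-075 against DMSO, the comparison used here, 19.6% were lower and 19.8% higher, with a median of 0.03, and the counts of each list are to be read against these shares. Of 5 tested genes for other apolipoproteins and particle proteins, 2 fell with ABBV-075 against DMSO (median of the 5 -0.40). They were APOF (4.72 to 0.537 CPM, log2 fold change -3.06 ± 0.46, SE) and APOA4 (8.79 to 3.502 CPM, -1.35). APOF with ABBV-075 was near the floor of the counts, so the size of its change is uncertain. Of 13 tested genes of assembly and secretion, 5 fell and 2 rose (median -0.14), beside 19.6% and 19.8% of all genes. Those with the largest changes were PLA2G12B, which acts in the loading of lipid onto VLDL (33.5 to 10.2 CPM, -1.73), CIDEB, a lipid droplet protein needed for VLDL lipidation (59.7 to 19.5 CPM, -1.64), and SOAT2, which esterifies cholesterol (11.2 to 3.999 CPM). In the same contrast, 2 of 3 tested genes of plasma remodelling fell, the cholesterol exporter ABCA1 (-1.07) and the hepatic lipase gene LIPC (-0.91).

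Among 9 tested receptors and their regulators, 2 fell and 2 rose with ABBV-075, with a median of 0.03, shares near those of all genes (19.6% and 19.8%). SDC1, a heparan sulfate proteoglycan that takes up remnants, fell from 280 to 96.2 CPM (-1.56), and MYLIP, a ubiquitin ligase of the LDL receptor, rose from 4.48 to 13.4 CPM (1.55). Of 18 tested transcription factors known to act on hepatic apolipoprotein genes, 7 fell and 1 rose (median -0.26), beside 19.6% and 19.8% of all genes. NR1H4, the bile acid receptor FXR, fell from 54.1 to 3.796 CPM (-3.83). In the IFNg background it was 4.72 CPM with ABBV-075 against 58.3 CPM with IFNg alone (-3.60). With ABBV-744 50 nM, NR1H4 fell to 25.1 CPM against DMSO (-1.09), and with IFNg it was 54.1 CPM with ABBV-744 50 nM against 58.3 CPM with IFNg alone (-0.09, adjusted p = 0.55). With ABBV-744 500 nM, NR1H4 stood at 24.4 CPM without IFNg (-1.14) and at 39.3 CPM with it (-0.58 against IFNg). Its interaction with IFNg was 0.98 at 50 nM and 0.58 at 500 nM, where 25.0% and 18.5% of all genes tested passed as higher. Values of NR1H4 and the other listed genes are without the GC correction, and the part of the GC trend in them was not tested. Of 12 abundant secreted plasma proteins, 4 fell and 0 rose at the threshold with ABBV-075 (median -0.28), with VTN (-1.38), AHSG (-0.90) and FGA (-0.64) the largest.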

How the data were processed

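Total RNA of HepG2 cells was depleted of ribosomal RNA and made into directional libraries by the authors, who used Trimmomatic 0.33 for trimming and STAR 2.7.1 for alignment to GRCh38 (per their processing notes) and deposited raw counts of reads per gene symbol, 1 file per library. The counts have the layout of STAR's gene counts, from which multi-mapping reads are absent (56.0% to 69.4% of all reads, with 14.8% to 25.3% outside genes). The annotation used for counting is not given in the sources used here. Column 4, the strand of the gene, was used. Lines that name no gene were left out of the library sizes. Groups came from the sample labels.

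Counts were filtered with filterByExpr, scaled with TMM and tested with edgeR 4.0.16 in R 4.3.3 (quasi-likelihood test), on the libraries of the groups compared, with Benjamini-Hochberg adjustment over all genes tested. The standard error is the log2 fold change over the square root of F, and intervals are 95%. CPM used TMM over all 24 libraries, log2 CPM a prior count of 2, and an interaction is the inhibitor effect with IFNg minus that without. GC content and exon lengths came from GENCODE for 24545 of the 26475 symbols. The GC correction fits log2 CPM deviations on GC content library by library (lowess, span 0.3) and takes the curve off; the length correction, added after seeing the data, does the same with transcript length. Other alternatives were DESeq2 1.42.0, RLE or library-size scaling, no filter, a minimum of 10 counts throughout, 1 fit of all 24 libraries, both strands together, no reads of the 10 most counted genes in the library sizes, a replicate block, the GC correction with that block, a prior count of 0.5 and leaving out each library in turn. The fits were tested on simulated data. Counts of a library limit precision by counting error, least for APOB and most for APOA5 (52 to 182 counts). All 10 genes are named, and from each other list the 3 genes with the largest change among those called in ABBV-075 against DMSO; the nearest patterns are the 3 highest Pearson r over group means. Some genes that these rules name are not reported here. The genes and lists were chosen with earlier results of these data known. Plots were drawn with matplotlib 3.10.9 in Python 3.11.15.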

Additional observations from a re-analysis of the deposited data

Results flagged for a closer look

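The following genes were picked out because the effect of ABBV-744 on them differed with and without IFNg by a test of that difference itself, an interaction in a fit of 4 groups (edgeR, adjusted over all genes). At 50 nM the differences were 0.97 for APOB and 0.51 for MTTP, higher with IFNg, and -0.53 for APOA1, -0.51 for APOA2, -0.84 for APOA5, -0.47 for APOC1, -0.77 for APOC3, -0.89 for APOE and -0.76 for APOM, lower with IFNg, all on the log2 scale. At 500 nM they were 0.83 for APOB, -0.38 for APOA2, -0.67 for APOA5, -0.40 for APOC1, -0.53 for APOC3, -0.39 for APOE and -0.57 for APOM. By the same test, 25.0% of the 11451 genes tested at 50 nM passed as higher and 26.5% as lower. At 500 nM these shares were 18.5% and 15.0% of 11428 genes. The median difference over all genes tested was -0.14 at 50 nM and -0.09 at 500 nM. Genes in the lowest GC quartile had a median difference of 1.00 and those in the highest of -0.60 at 50 nM, and 0.76 and -0.35 at 500 nM. After the GC correction, the calls that remained among these were APOB (0.67) and APOE (-0.33) at 50 nM and APOB (0.64) at 500 nM. Both doses share the DMSO and IFNg libraries, so the 2 sets of values are not independent.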

How the results depend on the processing

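Of 140 log2 fold changes (10 genes in 14 comparisons), 70 passed the threshold. Outside the fits that leave out a library, 1542 of the alternative values kept their side of it and any called direction, 77 lost and 43 gained a call, and 18 turned while called in one of the 2 fits. Under the GC correction, and under it with the replicate block, the turned values were 0.289 and 0.290 for APOA1, 0.124 and 0.125 for APOA2 and -0.0795 and -0.0789 for MTTP in ABBV-744 50 nM with IFNg against IFNg, 0.228 and 0.230 for APOA2 in ABBV-744 500 nM with IFNg against IFNg, and, in the interaction of ABBV-744 50 nM, 0.0507 and 0.0513 for APOA1, 0.0640 and 0.0646 for APOC1, -0.289 and -0.290 for APOH and -0.0256 and -0.0248 for MTTP. Under the length correction they were 0.157 for APOA1 and 0.00491 for APOA2 in ABBV-744 50 nM with IFNg against IFNg.

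Counts of the 10 genes called moved as follows, and the cause was not tested. ABBV-744 50 nM against DMSO went from 4 to 2 with the GC correction, with and without the block. IFNg against DMSO went from 1 to 2 without a filter and to 0 with all 24 libraries. ABBV-744 500 nM against 50 nM went from 0 to 1 with the replicate block and, with IFNg, from 1 to 3 with the block and to 0 with all 24 libraries, the GC correction (with and without the block) and the length correction. The interaction counts went from 9 to 3 at 50 nM and from 7 to 2 at 500 nM with the GC correction (with and without the block), and at 500 nM to 1 with the length correction. Leaving out 1 library gave 2 to 5 for ABBV-744 50 nM against DMSO, 0 to 2 for IFNg and 0 to 2 for the doses with IFNg. For the other comparisons it gave between 0 and 9 of the 10. Over all genes, calls went from 2102 to 1157 with DESeq2, 1194 with the GC correction (900 with the block) and 708 in the lowest fit without 1 library for ABBV-744 50 nM against DMSO. They went from 1700 to 977 with DESeq2 for 500 nM against DMSO, from 5766 to 3841 with the GC correction for 50 nM with IFNg against IFNg, from 3 to 13 without a filter, 5 with DESeq2, 9 with all 24 libraries, 16 with the GC correction (144 with the block), 8 with the length correction and 320 with the block alone for 500 nM against 50 nM, from 187 to 103 with DESeq2, 99 with the GC correction and 2 with all 24 libraries for those doses with IFNg, from 4 to 45 without a filter, 14 with DESeq2, 27 with the GC correction and up to 200 without 1 library for the interaction of ABBV-075, and, with the GC correction, from 5905 to 2334 and from 3827 to 1915 for the interactions of ABBV-744 50 nM and 500 nM. Without 1 library, the lowest counts were 2651 of 4481 for ABBV-075 against ABBV-744 50 nM, 793 of 1700 for ABBV-744 500 nM against DMSO and 64 of 187 for its doses with IFNg. The replicate block left the other counts of these 10 genes within 1.5 times. Same-numbered replicates correlated over 0.1 in 7 of 33 pairs (-0.18 to 0.34), so the numbers were not taken to pair the libraries.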
